A study of Mus musculus with 6 samples.

Results

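Interferon-stimulated genes are the genes that cells switch on when an interferon binds its receptor. Type I interferon activates the kinases JAK1 and TYK2, which phosphorylate STAT proteins such as STAT2. These join IRF9 into a complex that binds the interferon-stimulated response element (ISRE) in promoters, whereas interferon gamma acts mainly at gamma-activated sites (GAS). The products detect viral nucleic acid, block viral replication, present antigen and damp the signal again, and cells of the osteoblast lineage, like most cell types, hold the pathway ready and express many of these genes at a low tonic level.

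A list of 41 such genes was examined in RNA sequencing of cultured calvarial preosteoblasts from 3-day-old mice. The members were taken as the rows whose gene symbol equalled a listed name, and 39 of the 41 had a row among the 17001 rows of the table. *Mx1* and *Mx2* had none. The control libraries (n = 3) came from NELL2 fx/fx mice and the cKO libraries (n = 3) from Col1-cre; NELL2 fx/fx mice, so both groups carried the floxed alleles and differed in the Cre recombinase, which a Col1a1 promoter fragment drives in cells of the osteoblast lineage. The strain background of these litters is not given in the sources used here. The cells were grown in α-MEM with serum, and the sources used here name no interferon treatment. The labels number the replicates without saying whether they came from separate animals or cultures, so p-values measure only the spread between these libraries. Values are FPKM, fragments scaled to transcript length and to the mapped fragments of a library, so levels can be compared between genes. The depth of the libraries is unknown from FPKM, and counting errors are therefore not stated. The series compares the genotypes to learn what NELL2, a secreted EGFL-like protein, does in bone-forming cells.

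The 6 libraries expressed the defining genes of preosteoblasts. *Runx2*, the master regulator of the lineage, ranged from 10.98 to 14.71 FPKM, and *Col1a1*, the main bone collagen, from 8053 to 8578 FPKM. All 8 markers on the preosteoblast list were expressed. Alongside the members, 1 marker was higher and 3 were lower in cKO libraries at an unadjusted p-value under 0.05, 0 after adjustment in limma, with a median log2 fold change of -0.20. Over all tested rows, 5.37% were higher and 7.76% lower at that unadjusted threshold. *Sp7*, the transcription factor osterix, was at 17.57, 16.86 and 13.20 FPKM in controls and at 12.44, 10.40 and 10.31 FPKM in cKO libraries, and *Alpl* and *Prrx1* were the other lower ones, *Postn* the higher one. The part of these differences in the interferon-stimulated genes was not tested. *Nell2* itself was at 3.17, 2.59 and 1.88 FPKM in control replicates 1 to 3 and at 5.64, 1.61 and 5.74 FPKM in the libraries labelled cKO, so the mean of the targeted gene was not lower there, although cKO replicate 2 held the lowest value, and without that library the log2 fold change was 0.93 (all libraries: 0.48, standard error (SE) 0.37, adjusted p = 0.591). The study checked the deletion in calvarial preosteoblasts by qRT-PCR and western blotting and reported NELL2 as knocked out. Those are other measures than the FPKM of a whole gene. Which exons are floxed is not given in the sources used here. Directions below follow the labels of the libraries. In bulk RNA, fewer cells of one type and less RNA per cell cannot be told apart.

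The interferon-stimulated genes lay mostly on one side. Of the 39 members with a row, 32 had a higher mean FPKM in the cKO libraries. In a fit without a filter, 32 of the 39 had a log2 fold change above 0, against 47.9% of all 17001 rows. The comparison used log2(FPKM + 1) and limma, with p-values adjusted by Benjamini and Hochberg's method over the 11590 rows with at least 1 FPKM in at least 3 libraries. On this scale, which understates the change of low genes, 35 members could be tested, and 29 of them had a log2 fold change above 0, against 44.2% of all tested rows. The median over the 35 was 0.24, and the median of all tested rows was -0.02. The mean level of the members with a row ran from 0.0967 FPKM for *Oas3* to 1617 FPKM for *Ifitm3*. No single member passed the test. After adjustment, 0 of 35 had a p-value under 0.05 in limma, as had 0% of all rows, and the adjusted p-values of the members ran from 0.312 to 0.916.

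At an unadjusted p-value under 0.05, 10 members were higher in the cKO libraries, where 5.37% of all tested rows were, and 0 were lower, where 7.76% of all rows were. These 10 were *Ifi44*, *Gbp3*, *Zbp1*, *Ifi211*, *Irf7*, *Dtx3l*, *Oasl1*, *Xaf1*, *Oasl2* and *Gbp7*. In the same 10, all 3 cKO libraries lay above all 3 controls, a pattern seen for 6.51% of all tested rows. No member had all cKO libraries below the controls, as 11.8% of all rows had. Over all rows, 622 were higher and 899 lower at the unadjusted threshold, a split that became 798 and 688 when libraries were scaled by their upper quartile. The 10 members depended on single libraries, since 6 members were past the unadjusted threshold and higher without control replicate 2 and 6 without cKO replicate 2, against 3.94% and 3.38% of all rows higher in those fits. Without control replicate 2, the log2 fold change was 0.32 in place of 0.49 for *Xaf1*, 0.24 in place of 0.39 for *Oasl2* and 0.15 in place of 0.25 for *Gbp7*. The members were listed with earlier results of these libraries known, so the counts describe them and are no separate test.

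**Figure D1:**
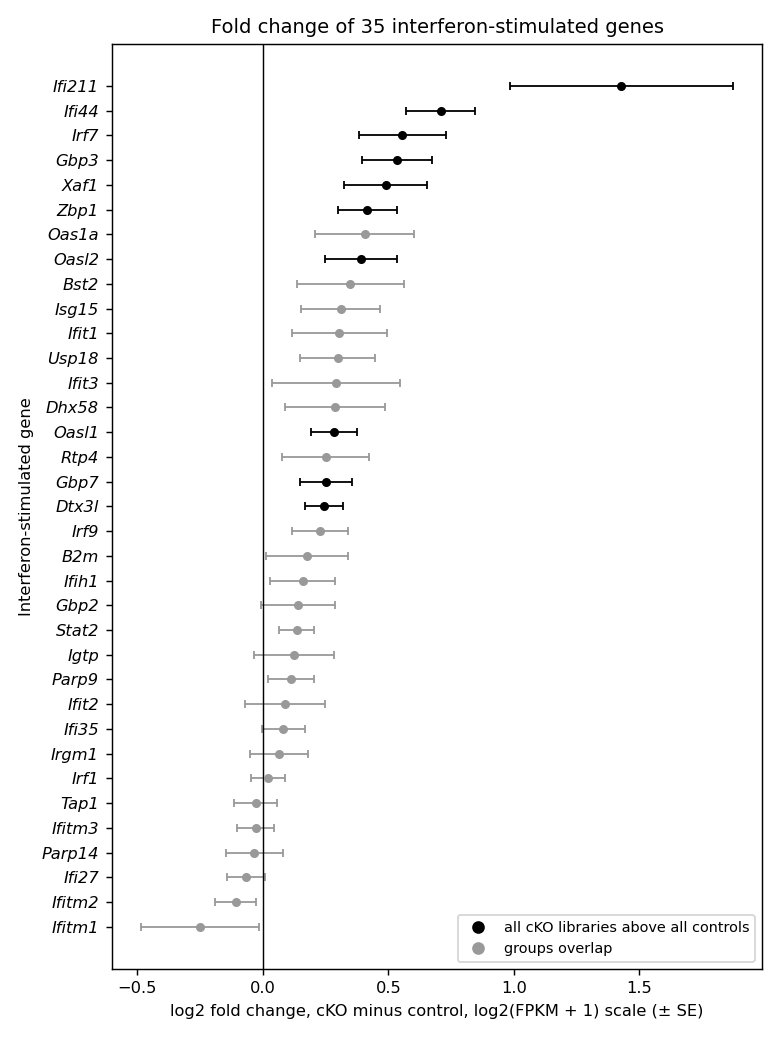
Log2 fold change of the 35 tested interferon-stimulated genes, cKO minus control, on the log2(FPKM + 1) scale; bars are standard errors from limma, and black points mark members whose cKO libraries all lie above all controls. 29 points are above 0, led by *Ifi211* at 1.43, and 6 are below, the lowest *Ifitm1* at -0.25.

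The binding site shared by these genes was looked for in their promoters. RefSeq windows (GRCm38.p6) from 250 bases before to 50 bases after a start site were at hand for 31 of the 41 members, in 35 windows. The ISRE core GAAANNGAAA, searched on both strands, occurred in 18 of the 35 windows (51.4%) and in 3.44% of all 32851 windows. The GAS core TTCNNNGAA, a palindrome, occurred in 8 of the 35 windows (22.9%) and in 8.3% of all windows. Matches of both motifs could overlap, and a match shows only that the letters are there. A missing match shows only that these exact letters are absent from the window, since variant forms of the element were not searched. The upstream 150 bases of 5 members are printed 5′ to 3′, with ISRE matches in capitals, because they hold the element in its single, repeated and inverted forms and belong to members whose fold changes lay far apart.
*Isg15*, chr4:156200819-156200968, minus strand: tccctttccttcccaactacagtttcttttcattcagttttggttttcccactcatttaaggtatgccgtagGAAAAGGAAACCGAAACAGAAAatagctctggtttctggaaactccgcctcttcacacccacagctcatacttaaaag
*Ifit1*, chr19:34640739-34640888, plus strand: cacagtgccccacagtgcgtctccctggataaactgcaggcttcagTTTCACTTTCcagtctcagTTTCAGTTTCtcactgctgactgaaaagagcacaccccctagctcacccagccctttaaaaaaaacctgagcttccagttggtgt
*Gbp3*, chr3:142559894-142560043, plus strand: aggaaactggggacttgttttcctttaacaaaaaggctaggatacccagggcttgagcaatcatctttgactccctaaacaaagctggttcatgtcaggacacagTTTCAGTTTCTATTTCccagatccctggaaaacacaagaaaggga
*Irgm1*, chr11:48871421-48871570, minus strand: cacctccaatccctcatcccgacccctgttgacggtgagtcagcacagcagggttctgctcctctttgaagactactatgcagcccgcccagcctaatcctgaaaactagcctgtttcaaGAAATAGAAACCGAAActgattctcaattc
*Ifi211*, chr1:173913047-173913196, minus strand: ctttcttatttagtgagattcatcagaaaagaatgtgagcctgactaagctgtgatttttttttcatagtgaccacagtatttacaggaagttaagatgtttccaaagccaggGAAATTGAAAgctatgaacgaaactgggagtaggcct

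In *Isg15* the match is repeated 3 times in overlap, from 78 bases before the start site. In *Ifit1* and *Gbp3* it is read on the opposite strand, as 2 separate matches in *Ifit1* and as 2 overlapping ones in *Gbp3*. *Irgm1* has 2 overlapping matches close to its start, and *Ifi211* has 1. The 27 ISRE matches in all members had a median position of -59 bases relative to the start site. Members with and without a match to these letters were set side by side, with no test. The 16 tested members with a match had a median log2 fold change of 0.21, with 3 past the unadjusted threshold, and the 12 tested members with a window but no match had a median of 0.23, with 6 past it.

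**Figure D2:**
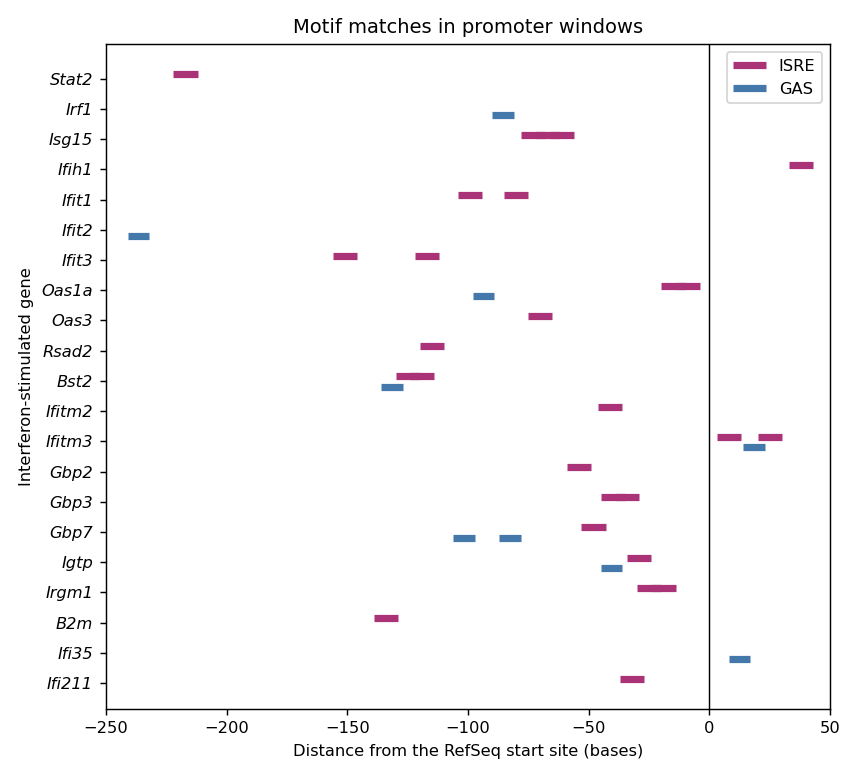
Positions of ISRE (purple) and GAS (blue) matches in the promoter windows of the members that hold one, as distance in bases from the RefSeq start site at 0. ISRE matches gather in the last 150 bases before the start, where 22 of the 27 lie.

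The transcription factors of the response were examined first. *Irf7*, which amplifies interferon production and is itself interferon-induced, lies on chromosome 7 (141262706 to 141266481, minus strand, GRCm38, GENCODE M21). It was at 18.35, 11.06 and 12.42 FPKM in the controls and at 20.44, 22.30 and 18.94 FPKM in the cKO libraries, in order of replicate as in all values below. The groups did not overlap, but control replicate 1 lay just below the lowest cKO library. The mean was 13.9 ± 3.88 FPKM in controls and 20.6 ± 1.68 FPKM in cKO libraries (SD, n = 3 each), a log2 fold change of 0.56 (SE 0.17, adjusted p = 0.312). *Irf9*, the DNA-binding partner of STAT2, had the highest level of the 4 factors. Its FPKM was 22.57, 18.05 and 19.58 in controls and 23.26, 26.54 and 21.16 in cKO libraries, so the groups overlapped through control replicate 1 (log2 fold change 0.23, SE 0.11, adjusted p = 0.427). *Stat2* had a log2 fold change of 0.13, with all values between 17.01 and 20.23 FPKM. *Irf1*, which answers interferon gamma through a GAS, was the steadiest of the 4, between 16.92 and 19.24 FPKM, with a log2 fold change of 0.02.

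ISG15 is a ubiquitin-like protein that is attached to other proteins during infection, and USP18 removes it and also blocks the type I interferon receptor. *Isg15* (chromosome 4, 156199424 to 156200818, minus strand) was among the most abundant members. It was at 172.85, 118.01 and 129.85 FPKM in controls and at 182.97, 186.43 and 148.94 FPKM in cKO libraries. Control replicate 1 lay above cKO replicate 3, and the difference of the means, 140 ± 28.9 against 173 ± 20.7 FPKM (SD, n = 3 each), did not pass the test (log2 fold change 0.31, SE 0.16, adjusted p = 0.437). *Usp18* had nearly the same order of libraries, with 18.27, 14.01 and 12.46 FPKM in controls and 19.02, 20.39 and 15.89 FPKM in cKO libraries (log2 fold change 0.30, SE 0.15, adjusted p = 0.435).

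**Figure D3:**
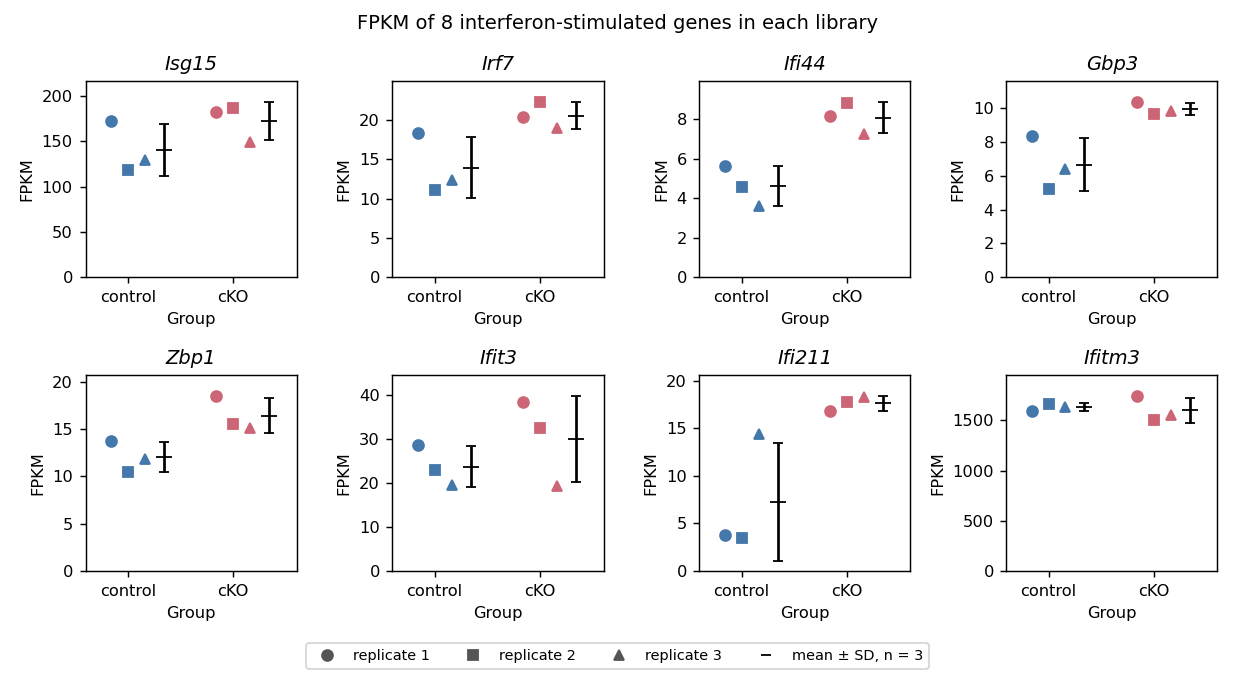
FPKM of 8 members in each library; circles, squares and triangles are replicates 1, 2 and 3, and the black bars give the mean ± SD of 3 libraries. The cKO libraries lie above all controls for *Irf7*, *Ifi44*, *Gbp3*, *Zbp1* and *Ifi211*, and the groups overlap for *Isg15*, *Ifit3* and *Ifitm3*.

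Of the sensors, *Zbp1*, which recognizes left-handed double-stranded nucleic acid, had the highest level. Its FPKM was 13.75, 10.51 and 11.86 in controls and 18.51, 15.50 and 15.14 in cKO libraries, with all cKO values above all controls (log2 fold change 0.42, SE 0.12, adjusted p = 0.312). *Dhx58*, which encodes the RIG-I-like protein LGP2, ranged from 4.15 to 7.52 FPKM. Its control replicate 1, at 7.17 FPKM, lay above cKO replicates 2 and 3 (log2 fold change 0.29). *Ifih1*, the cytosolic sensor MDA5 of long double-stranded RNA, had a log2 fold change of 0.16 within 2.85 to 4.73 FPKM.

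The IFIT proteins bind viral RNA that lacks host cap marks, and their genes are neighbours on chromosome 19. In all 3, cKO replicate 3 lay below the other cKO libraries. *Ifit3* (chromosome 19, 34583531 to 34588731, plus strand) was at 28.62, 22.88 and 19.41 FPKM in controls and at 38.34, 32.35 and 19.20 FPKM in cKO libraries. The lowest value was thus a cKO library, replicate 3, and the groups overlapped (log2 fold change 0.29, SE 0.26, adjusted p = 0.635). It was 0.09 without cKO replicate 1 and 0.57 without cKO replicate 3. In *Ifit1*, cKO replicate 3 again lay among the controls, with 18.91, 14.41 and 14.55 FPKM in controls and 23.45, 22.50 and 14.65 FPKM in cKO libraries (log2 fold change 0.30, SE 0.19, adjusted p = 0.513). *Ifit2* had a log2 fold change of 0.09, which was -0.01 without control replicate 2 and -0.03 without cKO replicate 2. *Ifit3b*, a close copy of *Ifit3* outside the list, had its own row at 6.38 to 13.48 FPKM, and how reads shared by the copies were divided is not given in the sources used here.

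Active enzymes of the oligoadenylate synthetase family make the second messenger that activates RNase L. All 5 genes had a row, on chromosome 5. *Oasl2* was at 20.17, 13.35 and 16.99 FPKM in controls and at 22.78, 23.48 and 20.20 FPKM in cKO libraries. Control replicate 1 and cKO replicate 3 almost met (log2 fold change 0.39, SE 0.14, adjusted p = 0.34). *Oasl1* was lower in level, at 1.98, 1.57 and 2.08 FPKM in controls and 2.53, 2.25 and 2.72 FPKM in cKO libraries, again without overlap (log2 fold change 0.29, SE 0.09, adjusted p = 0.312). *Oas1a* had a log2 fold change of 0.41 with overlapping groups, and it has near copies that may share its reads. *Oas2* (0.34 to 0.85 FPKM) and *Oas3* (0.06 to 0.16 FPKM) were too low to test.

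Of the other antiviral effectors, *Bst2*, the tetherin that holds budding virions at the cell surface, was at 163.72, 118.64 and 134.65 FPKM in controls and at 137.68, 240.00 and 164.35 FPKM in cKO libraries. One library, cKO replicate 2, stood far above the rest, and the difference did not pass the test (log2 fold change 0.35, SE 0.21, adjusted p = 0.505). Without that library the log2 fold change was 0.13. *Rtp4* had a log2 fold change of 0.25 within 23.09 to 37.67 FPKM. *Rsad2*, which encodes viperin, and its neighbour *Cmpk2* on chromosome 12 were near the lower end of the table. *Rsad2* ranged from 0.28 to 1.01 FPKM and *Cmpk2* from 0.43 to 0.87 FPKM, with the lowest and the highest value of both genes in cKO libraries. Neither gene had at least 1 FPKM in at least 3 libraries, so neither was tested.

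The IFITM genes, whose proteins keep virions from fusing with endosomal membranes, include the 2 most abundant members, and all 3 had log2 fold changes below 0. *Ifitm3* (chromosome 7, 141009586 to 141010770, minus strand) was at 1590.09, 1667.07 and 1637.26 FPKM in controls and at 1744.60, 1506.05 and 1556.07 FPKM in cKO libraries. These overlapping groups gave a log2 fold change of -0.03 (SE 0.07, adjusted p = 0.888), which was 0.01 without cKO replicate 2. *Ifitm2* was at 935.52, 1039.01 and 1020.51 FPKM in controls and at 987.78, 949.30 and 845.77 FPKM in cKO libraries (log2 fold change -0.11, SE 0.08, adjusted p = 0.588). *Ifitm1* was the lowest of the 3, from 71.97 to 137.88 FPKM, with a log2 fold change of -0.25 (SE 0.23, adjusted p = 0.653), which was -0.02 without cKO replicate 2. All 3 were below 0 under both scalings of the libraries that were tried. These genes lie close together on chromosome 7, and reads common to their copies cannot be assigned here.

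Interferon-induced GTPases attack the membranes of intracellular pathogens. *Gbp3* (chromosome 3, 142560026 to 142573209, plus strand), a guanylate-binding protein, was at 8.32, 5.23 and 6.40 FPKM in controls and at 10.35, 9.65 and 9.82 FPKM in cKO libraries. The groups did not overlap, and the cKO libraries were close to each other (mean 9.94 ± 0.365 FPKM, SD, n = 3) while the controls spread (6.65 ± 1.56 FPKM, SD, n = 3). Its log2 fold change was 0.54 (SE 0.14, adjusted p = 0.312). *Gbp7* followed at a lower level, with 3.09, 2.23 and 2.83 FPKM in controls and 3.35, 3.74 and 3.13 FPKM in cKO libraries (log2 fold change 0.25, SE 0.10, adjusted p = 0.377). *Irgm1*, an immunity-related GTPase and the most abundant of the 5, had a log2 fold change of 0.06 (SE 0.12, adjusted p = 0.827), with 32.16, 26.03 and 25.76 FPKM in controls and 31.83, 30.19 and 25.72 FPKM in cKO libraries. *Gbp2* and *Igtp* had log2 fold changes of 0.14 and 0.13 with overlapping groups, and that of *Gbp2* was -0.03 without control replicate 2.

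PARP9 and DTX3L form a complex that modifies proteins after interferon signals, and PARP14 is a related mono-ADP-ribosyltransferase. Of the 3, *Dtx3l* had non-overlapping groups, at 4.97, 4.45 and 4.70 FPKM in controls and 5.98, 6.08 and 5.21 FPKM in cKO libraries (log2 fold change 0.24, SE 0.08, adjusted p = 0.312). *Parp9*, the most abundant of the 3, was at 17.78, 14.30 and 15.66 FPKM in controls and at 17.98, 17.72 and 16.02 FPKM in cKO libraries, which overlap (log2 fold change 0.11, SE 0.09, adjusted p = 0.612). *Parp9* (chromosome 16, 35938470 to 35972605, plus strand) and *Dtx3l* (35926511 to 35939151, minus strand) overlap at their starts on opposite strands, and reads from the shared stretch can be told apart only where the counting used strand. *Parp14* had a log2 fold change of -0.03, which was 0.07 without cKO replicate 3.

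For antigen presentation, *B2m*, the invariant chain of class I molecules, was at 814.38, 781.65 and 837.27 FPKM in controls and at 696.34, 1002.75 and 1098.30 FPKM in cKO libraries. The cKO libraries held both the lowest and the highest values (log2 fold change 0.17, SE 0.16, adjusted p = 0.653). It was 0.37 without cKO replicate 1 and 0.04 without cKO replicate 3. *Tap1*, a subunit of the peptide transporter, stayed between 18.09 and 21.74 FPKM with a log2 fold change of -0.03. This was 0.02 without control replicate 1 and 0.03 without cKO replicate 3.

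Among the remaining members, *Ifi44* (chromosome 3, 151730922 to 151749960, minus strand), a cytoplasmic protein induced by type I interferon, had the smallest unadjusted p-value of the list. It was at 5.63, 4.58 and 3.62 FPKM in controls and at 8.16, 8.84 and 7.27 FPKM in cKO libraries. All cKO libraries lay above all controls, with means of 8.09 ± 0.787 and 4.61 ± 1.01 FPKM (SD, n = 3 each), a log2 fold change of 0.71 (SE 0.14, adjusted p = 0.312). *Xaf1*, which promotes apoptosis by opposing XIAP, was at 12.51, 7.83 and 10.78 FPKM in controls and at 12.85, 16.51 and 15.04 FPKM in cKO libraries (log2 fold change 0.49, SE 0.17, adjusted p = 0.321). The groups were parted narrowly, between control replicate 1 and cKO replicate 1. *Ifi35* had a log2 fold change of 0.08. *Ifi27*, among the abundant members at 154.46 to 177.31 FPKM, was at 177.24, 154.46 and 177.31 FPKM in controls and at 155.87, 166.48 and 162.65 FPKM in cKO libraries (log2 fold change -0.07, SE 0.08, adjusted p = 0.718).

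*Ifi211*, a DNA-binding protein of the interferon-inducible p200 family, had the largest fold change of the list and an uneven control group. It was at 3.83, 3.45 and 14.39 FPKM in controls and at 16.78, 17.75 and 18.33 FPKM in cKO libraries. Control replicate 3 lay with the cKO libraries and not with the other controls. The log2 fold change was 1.43 (SE 0.44, adjusted p = 0.312), and without control replicate 3 it was 2.01 (SE 0.08, adjusted p = 0.00249 in limma). In that fit *Ifi211* was the only member called, among 0.0174% of all rows, and the other gene called was *Cyp4f16*, named after its values were seen. This fit leaves out the control that lay with the cKO libraries and keeps those at 3.83 and 3.45 FPKM. Leaving out any other single library gave *Ifi211* adjusted p-values of 0.19 to 0.671 in limma. The locus is on chromosome 1 (173896345 to 173913046, minus strand), inside the span annotated for *Mndal* (173849126 to 173942491) on the same strand and next to *Ifi203*. *Mndal* was at 0.93, 0.73 and 3.33 FPKM in controls and at 2.54, 4.76 and 4.30 FPKM in cKO libraries, and *Ifi203* at 1.47, 0.98 and 2.30 FPKM and at 2.46, 4.12 and 3.26 FPKM. In both, control replicate 3 was again the highest control. So it was in the nearby *Ifi204*, at 18.22 FPKM. In *Ifi205* and *Ifi207*, also nearby, it was the lowest control, at 1.09 and 1.40 FPKM. The genes of this cluster overlap and resemble each other, so the split of reads between their rows is uncertain.

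Across the list, the libraries differed within as well as between the groups. For each of the 35 tested members, the log2(FPKM + 1) value was taken relative to the member's mean over the 6 libraries. The median of these differences was 0.05, -0.23 and -0.14 in the controls and 0.16, 0.21 and -0.03 in the cKO libraries, in order of replicate. Control replicate 1 thus lay above cKO replicate 3. Control replicate 2 held the lowest value of 19 of the 35 members (54.3%), where it held the lowest value of 15.5% of all tested rows. The highest value was in cKO replicate 2 for 16 members and in cKO replicate 1 for 12, whereas these libraries held the highest value of 23.3% and 9.26% of all rows. Without control replicate 1, 15 members were past the unadjusted threshold and higher, and without cKO replicate 3, 14 were, against 3.23% and 3.51% of all rows in those fits.

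**Figure D4:**
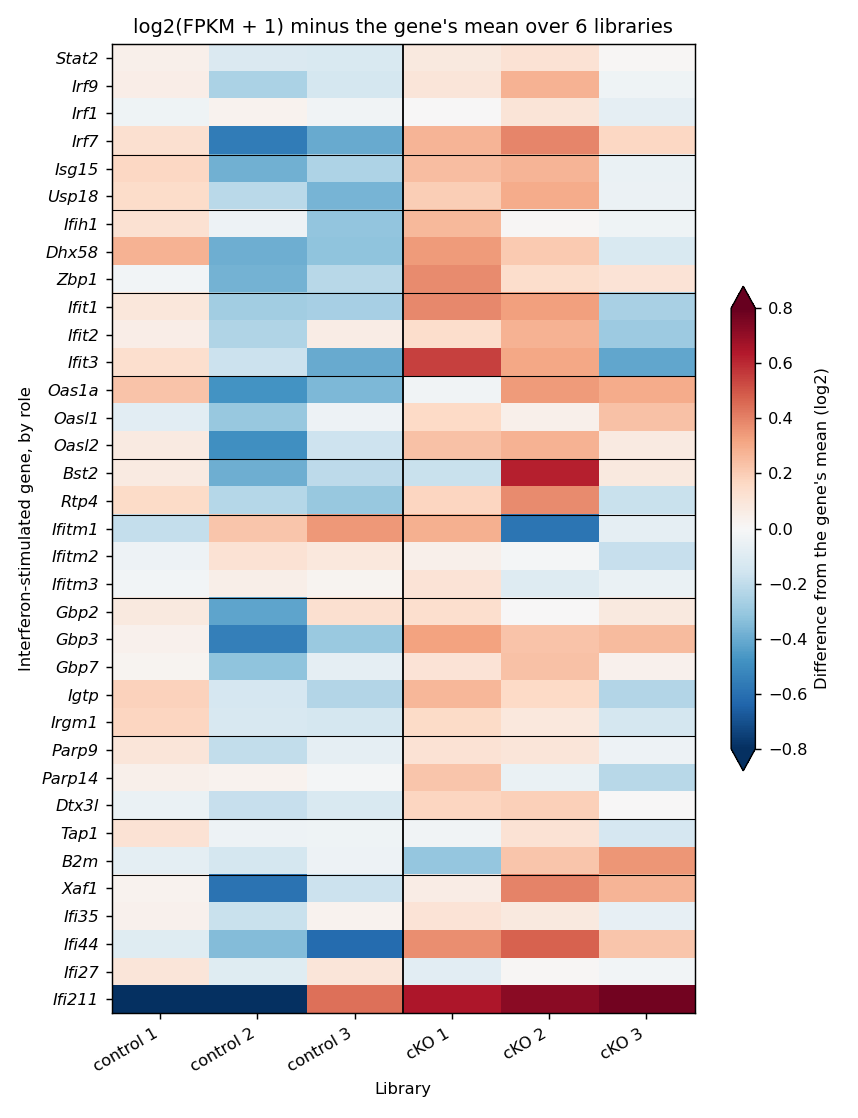
Log2(FPKM + 1) of the 35 tested members minus each member's mean over the 6 libraries, in rows ordered by role and columns by library; red is above and blue below the mean, and the colour scale ends at 0.8, which *Ifi211* passes in control replicates 1 and 2. Control replicates 2 and 3 are mostly blue, cKO replicates 1 and 2 mostly red, and control replicate 1 and cKO replicate 3 lie between them.

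The 6 libraries also differed in Y-linked expression. Control replicate 3 and cKO replicates 1 and 3 expressed the Y-linked *Ddx3y* at 15.65 to 17.33 FPKM, and the other 3 libraries at 0.06 FPKM or less. Within the 3 libraries with Y-linked expression, the median difference of the 35 members between cKO and control was 0.21 on the log2(FPKM + 1) scale and 27 members were higher, as were 37.9% of all tested rows. Within the 3 without it, the median difference was 0.33 and 30 members were higher, as were 52.0% of all tested rows. One group had a single library in each of these comparisons, so neither has a test.

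The inputs of the pathway were then compared with its outputs. Of 12 interferon genes looked for, 3 had a row, and all were at the bottom of the scale. *Ifnb1* was listed at 0 in 5 libraries and at 0.11 FPKM in cKO replicate 1, *Ifng* at 0 in 5 libraries and at 0.06 FPKM in control replicate 2, and *Ifnz* at 0 to 0.16 FPKM. The genes of the list of receptors and kinases were all expressed. Of these 8 genes, 0 were higher and 1 was lower at the unadjusted threshold, with a median log2 fold change of 0.05, where 5.37% of all tested rows were higher and 7.76% lower. The lower one was *Ifngr2*, a chain of the interferon gamma receptor, at 31.29, 28.34 and 28.13 FPKM in controls and at 22.38, 27.45 and 25.46 FPKM in cKO libraries (log2 fold change -0.22, adjusted p = 0.378). *Jak2* and *Ifnar2* came next, with log2 fold changes of 0.15 and 0.10.

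Of the 12 tested sensors and adaptors upstream of interferon production, 0 were past the unadjusted threshold in either direction, with a median log2 fold change of 0.05. The smallest p-values belonged to the kinase gene *Tbk1* (log2 fold change -0.17), the RNA sensor gene *Tlr3* (0.22) and *Ddx58*, which encodes RIG-I (0.15). Of the 11 tested inhibitors of the response, 0 were higher and 1 was lower at that threshold, with a median of -0.03. For both lists, the shares over all tested rows were 5.37% higher and 7.76% lower. Smallest in p-value among these inhibitors were *Rnaseh2c*, a subunit of RNase H2 (log2 fold change -0.23, adjusted p = 0.368 in limma), the cytokine signal inhibitor *Socs3* (0.37, adjusted p = 0.381) and the RNA-editing enzyme *Adar* (0.12, adjusted p = 0.439).

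A further list of 53 interferon-induced genes that are not members lay mostly on the same side. This list too was chosen with earlier results of these data known. It also holds close copies of members, such as *Ifit3b*, so its counts are no separate test. Of its 45 tested genes, 36 had a log2 fold change above 0, against 44.2% of all tested rows, with a median of 0.21. At the unadjusted threshold 12 were higher and 1 was lower, against 5.37% and 7.76% of all rows, and adjustment in limma left 0. The smallest p-values were those of the ADP-ribosyltransferase gene *Parp10*, the synthetase gene *Oas1g* and the exonuclease gene *Isg20*. *Parp10* was at 5.37, 4.57 and 5.74 FPKM in controls and at 7.29, 8.61 and 6.81 FPKM in cKO libraries (log2 fold change 0.46, SE 0.11, adjusted p = 0.312). *Isg20* was at 12.72, 12.13 and 15.68 FPKM in controls and at 17.61, 18.59 and 23.23 FPKM in cKO libraries (log2 fold change 0.52, adjusted p = 0.312), and *Oas1g* had a log2 fold change of 0.34 at 0.61 to 1.35 FPKM. The cKO libraries lay above the controls in all 3 genes, which were picked by their small p-values. Of the 45 tested genes, 14 had this pattern and 0 the reverse, against 6.51% and 11.8% of all tested rows.

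Markers of other cells that express these genes were read in the same libraries. The macrophage list had 10 of 10 genes in the table, and its summed level was 38.5 to 101 FPKM in controls and 52.6 to 84.7 FPKM in cKO libraries. Most of it was *Lyz2*, the lysozyme of myeloid cells, at 26.61 to 74.99 FPKM, while the leukocyte antigen gene *Ptprc* was at 0.07 to 0.18 FPKM. Of its 7 tested genes, 6 had a log2 fold change above 0, against 44.2% of all tested rows, with a median of 0.12, and 0 were past the unadjusted threshold. The macrophage sum was lowest in control replicate 2, which was also lowest for the members, and next lowest in cKO replicate 1, where the members were high. Lymphocyte markers reached 0.15 FPKM and endothelial markers 1.42 FPKM at most. The part of such cells in the interferon-stimulated genes was not tested.

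**Figure D5:**
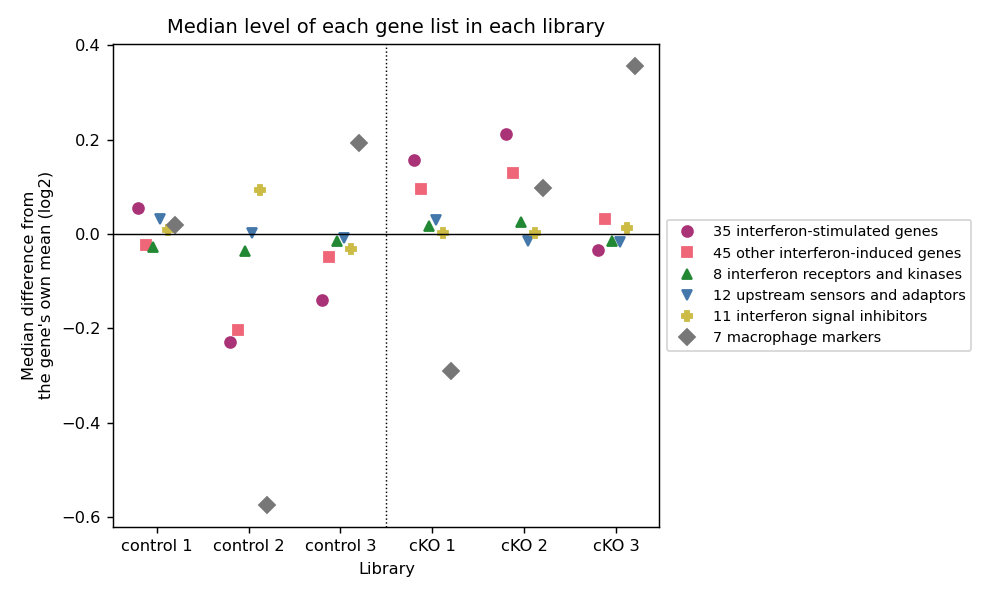
Median, over the tested genes of each list, of log2(FPKM + 1) minus the gene's own mean over the 6 libraries, for the 35 members, other interferon-induced genes, receptors and kinases, sensors and adaptors, inhibitors, and macrophage markers. The members range from -0.23 to 0.21, the receptors and kinases from -0.04 to 0.02, and the macrophage markers from -0.57 to 0.36 in another order of libraries.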

How the data were processed

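RNA of cultured calvarial preosteoblasts was sequenced as 150 bp read pairs in 6 libraries, 3 control and 3 cKO, grouped by the sample titles. The authors mapped the reads with HISAT2 and deposited a table of FPKM with 2 decimals, keyed by gene symbol; the submitters' processing notes name GRCm38 and DESeq, and the annotation and the program behind FPKM are not given in the sources used here. All sample columns were used. Summed FPKM was 573310 to 606430 per library; depth is unknown, so no count model was run.

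Values were taken as log2(FPKM + 1). Rows with at least 1 FPKM in at least 3 libraries were fitted with limma 3.58.1 (R 4.3.3; lmFit, eBayes, group as the only term), with Benjamini-Hochberg adjustment over all tested rows. The fit was tested on simulated data. Gene positions are from GENCODE M21 and promoter windows from RefSeq, both on GRCm38. The members and all gene lists were chosen with earlier results of these data known. Genes were named where they led their role group by level or p-value, had groups without overlap or held 1 of the 3 smallest p-values of a pathway list, with the other members given briefly. *Cyp4f16*, *Sp7*, *Mndal*, *Ifi203*, *Ifi204*, *Ifi205*, *Ifi207*, *Ifi27l2a*, *Ifit3b*, *H2-D1* and *H2-K1* were named after their values were seen. Alternatives were another pseudocount, 2 filters, a variance trend, 2 scalings, the replicate number as a block, a covariate for Y-linked expression and leaving out each library.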

Additional observations from a re-analysis of the deposited data

How the results depend on the processing

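With all 6 libraries, none of the 8 other settings gave a gene with an adjusted p-value under 0.05 in limma, member or not. In these settings 9 to 10 members were past the unadjusted threshold and higher, against 4.82% to 6.89% of all rows. The list median ran from 0.18 to 0.26. The 0.18 came from the fit without a filter, where the median covers 39 members. A variance trend cannot move the median, since it leaves every log2 fold change as it was. With a covariate for Y-linked expression, 1 member, *Ifitm1*, was past the unadjusted threshold and lower, and *Tap1* had a log2 fold change of 0.0147; the cause was not tested. Same-numbered libraries share only a number, and the correlations of their deviations were 0.03, -0.17 and 0.21. The replicate block gave 10 members past the unadjusted threshold and 0 adjusted calls. Every replicate number occurs in both groups, so this block cannot change a log2 fold change. Its median of 0.24 is therefore that of the main fit.

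Leaving out 1 library in turn gave 0 to 334 adjusted calls over all rows, the most without cKO replicate 1, and 0 to 1 members, *Ifi211* without control replicate 3. The members past the unadjusted threshold and higher numbered 6 to 15, and the median was 0.16 to 0.31. Of all rows, 3.23% to 9.30% were past that threshold and higher in these fits, the most without cKO replicate 1. Log2 fold changes that changed sign ran from -0.0234 to 0.0644 for *Irf1*, from -0.0292 to 0.253 for *Ifit2*, from -0.0915 to 0.0145 for *Ifitm3*, from -0.0334 to 0.241 for *Gbp2*, from -0.154 to 0.0687 for *Parp14* and from -0.0947 to 0.0315 for *Tap1*. The other 29 members kept their direction, but 27 of the 35 moved by over 1.5 times in at least 1 of these fits. Without depth, the counting error of low members such as *Oas3* is unknown.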

Other observations

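Several interferon-induced genes outside the list differed sharply between single libraries. The highest value over the lowest was 6.52 for *Mndal*, 5.07 for *H2-D1*, 4.20 for *Ifi203* and 4.17 for *Ifi27l2a*. *H2-D1*, a classical class I antigen-presenting gene on chromosome 17, was at 115.41, 97.04 and 27.92 FPKM in control replicates 1, 2 and 3 and at 22.76, 31.93 and 31.01 FPKM in cKO replicates 1, 2 and 3. It was the 1 lower gene at the unadjusted threshold among the 45 tested interferon-induced genes that are not members, with a log2 fold change of -1.24 (SE 0.50, adjusted p = 0.367 in limma). Control replicate 3 lay within the range of the cKO libraries, as it lay nearest to them for *Ifi211*. *H2-K1*, another classical class I gene on the same chromosome, was at 335.78, 275.01 and 439.51 FPKM in controls and at 367.94, 493.13 and 447.73 FPKM in cKO libraries, with overlapping groups (log2 fold change 0.33, adjusted p = 0.473). Class I genes are close copies of each other, and the split of reads between their rows is uncertain.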
